A study of Mus musculus with 18 samples.

Results

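The 39 genes described here are markers of dividing cells, 14 that are made around the G1/S transition and S phase and 25 that are made in G2 and mitosis. They are known genes of the cell cycle and of DNA replication, picked by name with earlier results of these data known, and all 39 were found among the 55487 genes of the count files and passed the filter on low counts. The data are bulk RNA-seq of whole-thickness ileum from 18 mice fed chow, with 1 library per mouse, and levels are given as CPM, the counts on a gene scaled to the total of its library. Controls (n = 6; 3 females, 3 males) carried the CAG-*Ppara*,-*EGFP* transgene, placed at the *Col1a1* locus in an inactive orientation, without *Villin-CreERT2*. IEC-*Ppara* heterozygous (n = 6; 2 females, 4 males) and homozygous mice (n = 6; 2 females, 4 males) also carried *Villin-CreERT2*, a tamoxifen-inducible Cre active in the intestinal epithelium, with the transgene on 1 or on both alleles. All 18 mice, controls included, were given 100 mg/kg tamoxifen on 3 consecutive days and were killed 2 weeks after the last dose, and they were on a C57BL6/J background and 8 to 13 weeks old. Cre is driven from an epithelial promoter while the libraries hold the whole gut wall, so epithelium, muscle, stroma and immune cells are mixed in every value. In such bulk samples, fewer dividing cells and less RNA per dividing cell cannot be told apart.

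Cells that enter the cycle first make cyclin E and E2F target genes, which load the MCM2-7 helicase on replication origins and raise the supply of deoxynucleotides. Later, the factor encoded by *Foxm1* and the MuvB complexes switch on the genes of mitosis, among them cyclins A and B, the kinases that build the spindle, and the parts of the anaphase-promoting complex that end mitosis. In the small intestine, division is held in the crypts, where stem cells and transit-amplifying progenitors renew the epithelium, and lymphoid tissue of the ileal wall also holds dividing B and T cells.

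The members' promoters are shown because the letters searched for were found at different rates in the phases, a property that uses no expression value. RefSeq promoters (build GRCm38.p6, 250 bases before to 50 after the start of the gene) were found for 32 of the 39 members, 12 S phase genes with 13 promoters and 20 G2/M genes with 20. The cell cycle homology region, TTTGAA on either strand, was in 15 of 20 G2/M promoters (75.0%) and 1 of 13 S phase promoters (7.69%), against 12.2% of the 12896 promoters of the protein-coding genes tested and 17.9% of all 32851 promoters of 300 bases. CCAAT, on either strand, was in 18 of 20 G2/M promoters (90%) and 9 of 13 S phase promoters (69.2%), against 37.1% of the promoters of tested genes and 37.4% of all. An E2F-like motif, any of TTTGGCGC, TTTCCCGC, TTTCGCGC and TTTGCCGC on either strand, was in 5 of 13 S phase promoters (38.5%) and 1 of 20 G2/M promoters (5.00%), against 3.74% and 2.26%. All 15 G2/M promoters with TTTGAA also held CCAAT, a pair found in 4.76% of the promoters of tested genes. A match is a run of letters and not a measured site. The promoters below are those of some G2/M and S phase genes with low p-values in the comparisons, with that of *Cdk1* beside them. S phase genes with low p-values that are not shown include *Pcna*, with CCAAT alone, and *Ccne1* and *E2f1*, with none of the motifs. Capitals mark every match, where overlapping E2F-like matches on opposite strands run together (*Mcm6*).

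The promoter of *Ccnb2* (chr9:70421505-70421804, minus strand) and that of *Cdk1* (chr10:69352863-69353162, minus strand) each hold 2 TTTGAA and 3 CCAAT matches, *Cdk1* with an E2F-like match besides, and that of *Nusap1* (chr2:119618048-119618347, plus strand) holds none of the motifs.
Ccnb2: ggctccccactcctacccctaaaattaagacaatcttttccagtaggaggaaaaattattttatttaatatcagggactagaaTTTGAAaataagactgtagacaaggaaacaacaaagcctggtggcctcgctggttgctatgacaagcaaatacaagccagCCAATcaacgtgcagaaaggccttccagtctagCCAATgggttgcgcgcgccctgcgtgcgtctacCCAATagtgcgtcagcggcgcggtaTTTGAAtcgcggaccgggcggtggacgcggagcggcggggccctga
Cdk1: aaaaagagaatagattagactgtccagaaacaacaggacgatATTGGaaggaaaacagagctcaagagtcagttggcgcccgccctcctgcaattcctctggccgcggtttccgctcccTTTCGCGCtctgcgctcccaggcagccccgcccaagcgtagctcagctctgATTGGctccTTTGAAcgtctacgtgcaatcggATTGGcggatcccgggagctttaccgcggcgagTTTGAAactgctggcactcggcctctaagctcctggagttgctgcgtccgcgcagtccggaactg
Nusap1: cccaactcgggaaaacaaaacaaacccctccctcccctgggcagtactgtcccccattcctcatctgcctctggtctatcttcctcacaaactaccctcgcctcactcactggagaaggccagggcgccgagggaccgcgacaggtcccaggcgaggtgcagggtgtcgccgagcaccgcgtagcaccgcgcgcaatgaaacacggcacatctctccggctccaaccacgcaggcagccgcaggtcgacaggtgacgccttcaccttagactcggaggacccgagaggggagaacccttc

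Among S phase genes, the promoters of *Mcm3* (chr1:20820263-20820562, minus strand) and *Mcm6* (chr1:128359656-128359955, minus strand) hold E2F-like and CCAAT matches, and that of *Rrm1* (chr7:102441445-102441744, plus strand) holds CCAAT alone.
Mcm3: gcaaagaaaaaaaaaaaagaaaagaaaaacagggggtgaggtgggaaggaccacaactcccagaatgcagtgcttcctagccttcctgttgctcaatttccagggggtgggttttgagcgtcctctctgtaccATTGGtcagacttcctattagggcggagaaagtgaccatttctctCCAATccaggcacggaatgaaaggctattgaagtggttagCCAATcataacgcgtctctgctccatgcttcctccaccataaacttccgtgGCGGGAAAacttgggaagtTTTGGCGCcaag
Mcm6: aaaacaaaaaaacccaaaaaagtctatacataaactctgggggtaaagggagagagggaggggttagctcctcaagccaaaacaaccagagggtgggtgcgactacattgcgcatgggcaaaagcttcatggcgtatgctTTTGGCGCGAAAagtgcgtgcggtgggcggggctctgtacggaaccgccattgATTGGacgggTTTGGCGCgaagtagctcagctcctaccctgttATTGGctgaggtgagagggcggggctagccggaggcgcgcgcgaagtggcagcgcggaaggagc
Rrm1: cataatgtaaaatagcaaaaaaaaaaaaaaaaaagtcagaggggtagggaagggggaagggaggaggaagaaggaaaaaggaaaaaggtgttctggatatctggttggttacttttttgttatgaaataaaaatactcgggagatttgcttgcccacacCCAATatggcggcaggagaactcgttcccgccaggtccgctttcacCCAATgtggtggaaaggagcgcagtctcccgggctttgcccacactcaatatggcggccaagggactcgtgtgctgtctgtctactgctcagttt

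Counts on genes came to between 38528522 and 50376371 per library, and the 39 genes together took 0.0975% to 0.147% of them. *Ppara* itself, the check of the labels, ran from 25.8 to 47.4 CPM over the controls, from 107 to 196 CPM over the heterozygous and from 184 to 279 CPM over the homozygous libraries, so every IEC-*Ppara* library lay above every control. The pan-epithelial marker list (10 genes, *Epcam* and *Vil1* among them) summed to between 13567 and 18051 CPM in the 18 libraries. Libraries control 2, control 3, heterozygous 2 and homozygous 1 stood apart in B cell transcripts (12 markers, *Ms4a1* and *Cd79a* among them), and the results that move without these 4 are given with that value. Control 6 and heterozygous 3 stood apart in low smooth muscle transcripts. Nothing in the labels names an extraction or sequencing batch. The paper used littermates, but the labels do not name litters. Whether equal replicate numbers tie mice of different groups together is not stated.

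None of the 39 genes passed the threshold in any of the 3 genotype comparisons (edgeR's quasi-likelihood test, Benjamini-Hochberg adjustment over 12645 protein-coding genes, adjusted p under 0.05). Of all genes, 0.293% passed in heterozygous and 0.411% in homozygous mice against controls, and 0.00791% in homozygous against heterozygous mice. Most estimates nonetheless lay below the controls, 37 of 39 in heterozygous and 36 of 39 in homozygous mice, against 52.5% and 51.9% of all genes. The fitted differences were small, with a median fold of 0.87 in heterozygous and 0.91 in homozygous mice over all 39 genes and 1.00 over all genes tested in both. The standard error of a member's log2 fold change had a median of 0.10 in both comparisons, and a missed threshold at this precision does not show that a gene was at the level of the controls. In heterozygous mice the lower values were spread over both phases, and in homozygous mice they were found in all 25 G2/M genes and 11 of 14 S phase genes. The cyclin E genes and *Tyms* were estimated above the controls there, by less than their standard errors. Whether the phases differed in homozygous mice was not tested.

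Averaged over its 14 genes on the log2 CPM scale, the S phase level was 4.73 ± 0.09 (SD, n = 6) in controls, 4.48 ± 0.10 (n = 6) in heterozygous and 4.62 ± 0.17 (n = 6) in homozygous libraries. Control libraries ran from 4.58 to 4.85 and heterozygous libraries from 4.34 to 4.63, so the groups overlapped only through the control 1 library and the heterozygous 2 library. Homozygous 5 and 6, at 4.82 and 4.84, lay in the upper control range, and the other 4 homozygous libraries between 4.46 and 4.66. The G2/M level was 4.79 ± 0.10 (n = 6) in controls, 4.60 ± 0.18 (n = 6) in heterozygous and 4.64 ± 0.08 (n = 6) in homozygous libraries. Heterozygous 5 was lowest of all 18 libraries in both phases, at 4.34 for S phase and 4.26 for G2/M. The S phase level of males was 4.74 in controls (n = 3), 4.44 in heterozygous (n = 4) and 4.57 in homozygous mice (n = 4), and that of females was 4.72 (n = 3), 4.57 (n = 2) and 4.74 (n = 2). The G2/M level was lower than in controls of the same sex in both sexes, at 4.54 and 4.63 against 4.80 in heterozygous and homozygous males and at 4.73 and 4.66 against 4.78 in females. Only the S phase level of homozygous females did not lie below its control.

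**Figure D1:**
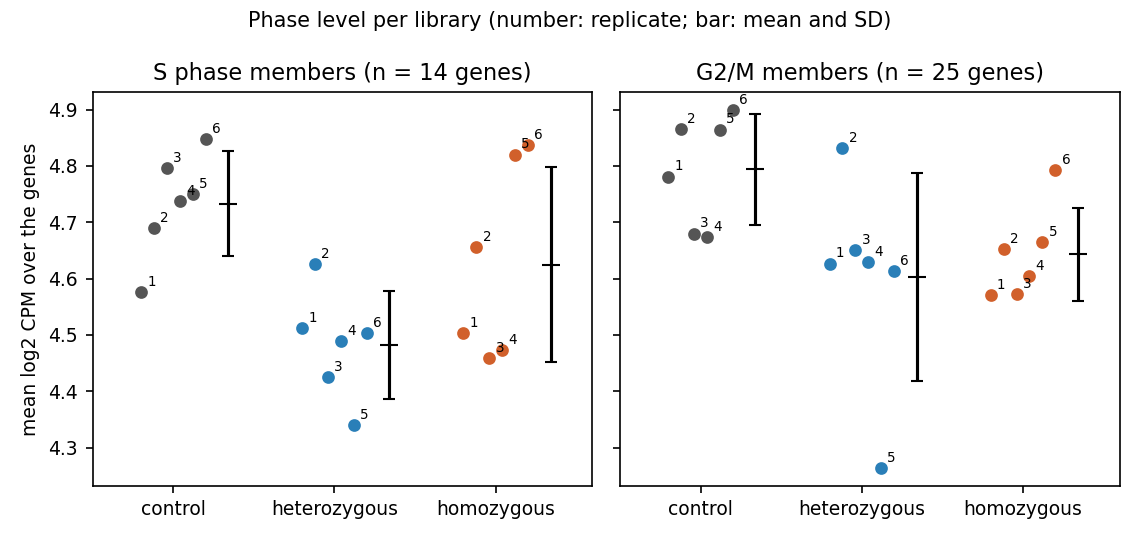
Mean log2 CPM over the 14 S phase genes (left) and the 25 G2/M genes (right) in each of the 18 libraries, coloured by genotype and numbered by replicate, with the group mean and SD as a bar beside the points. Homozygous 5 and 6 sit at 4.82 and 4.84 in S phase, among the highest controls, and heterozygous 5 is the lowest library in both panels.

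At the G1/S transition, *E2f1*, which encodes the transcription factor that switches on replication genes, was at 7.19 to 10.7 CPM (median 9.51) in controls. It was at 4.64 to 9.51 CPM (median 7.29) in heterozygous and 7.78 to 9.12 CPM (median 8.82) in homozygous mice. All 6 heterozygous and all 6 homozygous libraries lay at or below the control median, yet the ranges of all 3 groups overlapped. The fitted difference was -0.36 (SE 0.13) in heterozygous mice (edgeR, unadjusted p = 0.0111, adjusted p = 0.668) and -0.11 (SE 0.13) in homozygous mice (adjusted p = 0.880). *Ccne1*, which encodes cyclin E1, the partner of CDK2 at the start of S phase, was at 5.23 to 6.86 CPM (median 5.77) in controls, 3.80 to 5.55 CPM (median 4.92) in heterozygous and 4.78 to 7.97 CPM (median 5.52) in homozygous mice. Its highest values were in homozygous 5 and 6, at 7.30 and 7.97 CPM. *Ccne2*, the gene of cyclin E2, was estimated above the controls in both groups, by 0.08 (SE 0.19) in heterozygous and 0.17 (SE 0.19) in homozygous mice, and its exons share 17.4% of their bases with *Ints8* on the opposite strand. The 95% intervals in homozygous mice were wide, from -0.26 to 0.33 for *Ccne1* and from -0.23 to 0.56 for *Ccne2* on the log2 scale.

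The 6 subunits of the MCM2-7 helicase, which unwinds DNA at replication forks, were each estimated below the controls in both IEC-*Ppara* groups. *Mcm3* (chr1:20802968-20820312, minus strand) had the lowest p-value of any member in heterozygous mice. It was at 30.8 to 40.5 CPM (median 37.9) in controls, 24.9 to 35.97 CPM (median 27.1) in heterozygous and 26.4 to 36.2 CPM (median 31.4) in homozygous mice. Of the 6 heterozygous libraries, 5 lay below every control and the sixth, heterozygous 2, at 35.97 CPM, lay among them. The fitted difference of *Mcm3* was -0.35 (SE 0.10), a fold of 0.78, in heterozygous mice (edgeR, unadjusted p = 0.00285, adjusted p = 0.326) and -0.21 (SE 0.10) in homozygous mice (adjusted p = 0.635). *Mcm2* was at 37.2 to 47.3 CPM (median 43.8) in controls, 30.9 to 41.3 CPM (median 36.1) in heterozygous and 32.1 to 45.5 CPM (median 39.2) in homozygous mice. Every heterozygous library was below the control median of *Mcm2*, as against 4 of 6 homozygous libraries. *Mcm6* was at 61.1 to 70.5 CPM (median 69.2) in controls, 52.4 to 66.6 CPM (median 58.7) in heterozygous and 48.9 to 68.4 CPM (median 60.8) in homozygous mice, with nearly equal fitted differences of -0.17 (SE 0.09) and -0.17 (SE 0.09). *Mcm4* reached 33.2 CPM in heterozygous mice, just under the lowest control at 33.5 CPM, so that these groups did not overlap. *Mcm5* and *Mcm7* differed by -0.33 (SE 0.11) and -0.12 (SE 0.06) in heterozygous mice and by -0.19 (SE 0.11) and -0.09 (SE 0.06) in homozygous mice, on the log2 scale.

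*Pcna*, which encodes the sliding clamp of DNA polymerase, varied only 1.31-fold between the lowest and the highest of the 18 libraries, and among all members *Mcm7* alone varied less (1.24-fold). It was at 55.7 to 65.6 CPM (median 58.9) in controls, 50.5 to 58.4 CPM (median 53.2) in heterozygous and 50 to 57.7 CPM (median 53.6) in homozygous mice, and all 12 IEC-*Ppara* libraries lay below the control median. Its fitted difference was -0.14 (SE 0.06) in homozygous mice, the lowest p among S phase genes there (edgeR, unadjusted p = 0.0334, adjusted p = 0.587), and -0.13 (SE 0.06) in heterozygous mice (adjusted p = 0.958). *Rrm1* and *Rrm2* encode the large and small subunits of ribonucleotide reductase, which makes deoxynucleotides. *Rrm1* was at 48.8 to 59.1 CPM (median 53.7) in controls, 39.2 to 50.8 CPM (median 43.9) in heterozygous and 41.6 to 54.9 CPM (median 49.2) in homozygous mice. Of the heterozygous libraries only heterozygous 2, and of the homozygous libraries 4 of 6, lay inside the control range for *Rrm1*. Its fitted difference was -0.27 (SE 0.08) in heterozygous mice (edgeR, adjusted p = 0.334) and -0.15 (SE 0.08) in homozygous mice (adjusted p = 0.640). *Rrm2* was at 17.9 to 21.4 CPM (median 20.7) in controls, 12.5 to 18.4 CPM (median 17.5) in heterozygous and 14.9 to 22.02 CPM (median 17.98) in homozygous mice. *Tyms*, which encodes thymidylate synthase, was at 15.3 to 19.2 CPM (median 16.8) in controls, 13.6 to 18.3 CPM (median 16.3) in heterozygous and 16.03 to 18.5 CPM (median 17.5) in homozygous mice, the smallest difference among S phase genes in heterozygous mice at -0.07 (SE 0.08). *Hells*, the gene of a chromatin remodeller needed for DNA methylation, had the largest estimate of all members in heterozygous mice, at -0.36 (SE 0.16), and all 6 heterozygous libraries were below all 6 controls. *Hells* was at 15.9 to 21.8 CPM (median 17.96) in controls, 12.7 to 15.05 CPM (median 13.9) in heterozygous and 11.99 to 22.8 CPM (median 15.6) in homozygous mice, where it ranged over the controls and beyond.

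Across the S phase genes, 13 of 14 were estimated below the controls in heterozygous mice, with a median of -0.25 against -0.006 over all genes, and 11 of 14 in homozygous mice, with a median of -0.12 against -0.005 (log2). An unadjusted p under 0.05 with a lower value was reached by 8 of the 14 in heterozygous mice, against 2.53% of all genes, and by 1 of the 14 in homozygous mice, near the 4.03% of all genes.

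**Figure D2:**
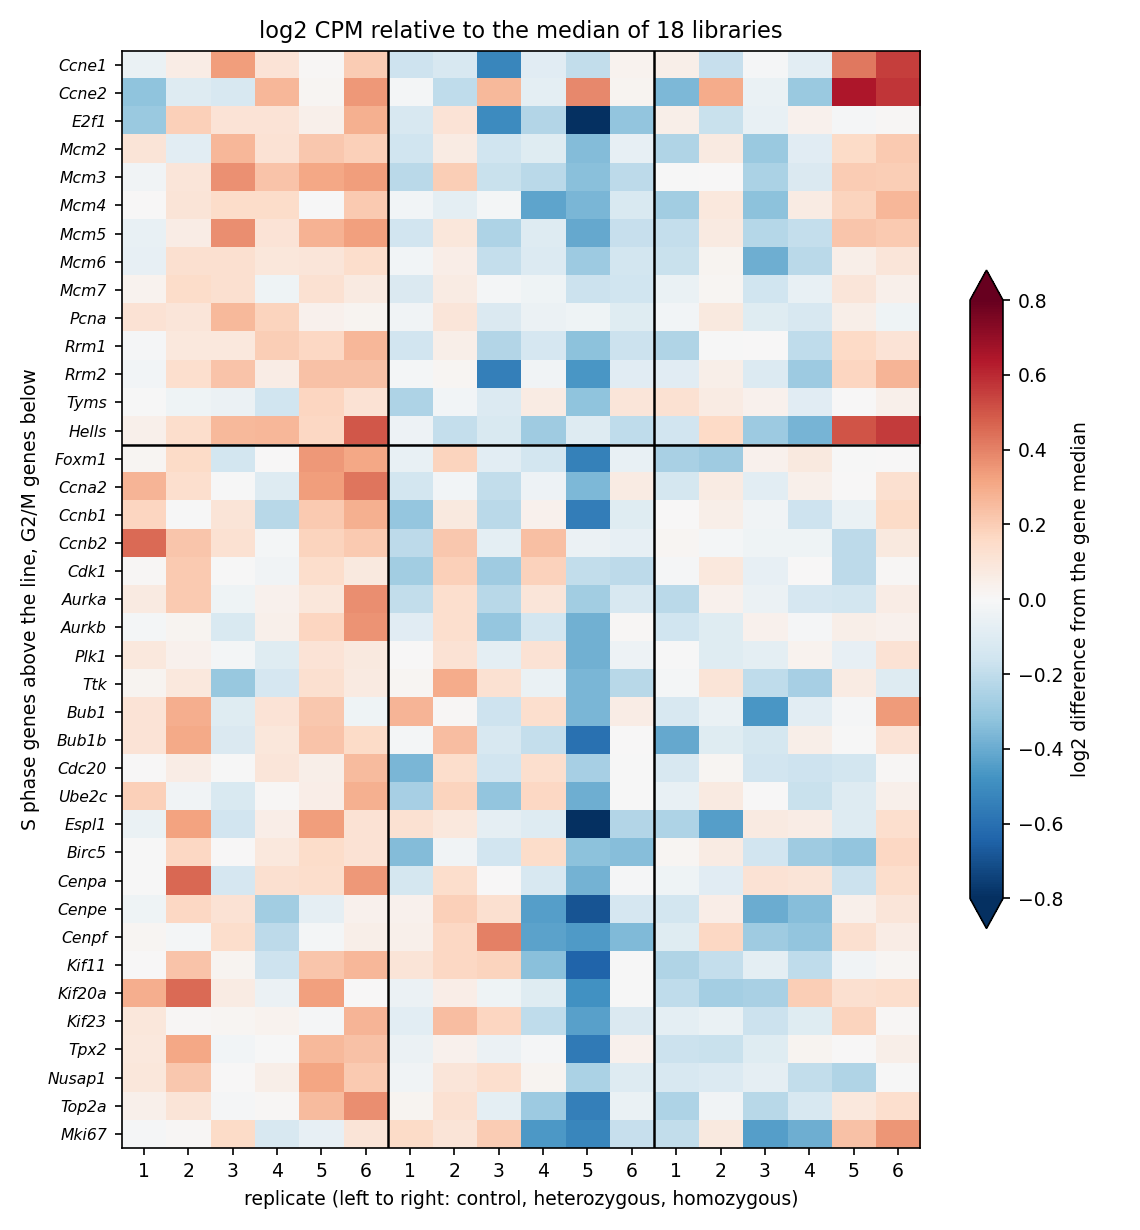
log2 CPM of the 39 genes in the 18 libraries, each relative to the gene's median over all libraries, with S phase genes above the line and G2/M genes below; red is above and blue below the median, and 2 of 702 values exceed the colour scale of 0.8. The heterozygous 5 column is blue for nearly all G2/M genes, and homozygous 5 and 6 are red for the cyclin E genes and *Hells*.

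The mitotic cyclins and their kinase were estimated below the controls without passing the test. *Ccna2* encodes cyclin A2, active from S phase into mitosis, and had the lowest p of a G2/M gene in heterozygous mice. It was at 39.8 to 57.5 CPM (median 49.2) in controls, 33.3 to 44.8 CPM (median 40.1) in heterozygous and 38.8 to 46.8 CPM (median 43.4) in homozygous mice, and all 12 IEC-*Ppara* libraries lay below the control median. The fitted difference of *Ccna2* was -0.28 (SE 0.10) (edgeR, unadjusted p = 0.00935, adjusted p = 0.646) and -0.18 (SE 0.10) (adjusted p = 0.654) in heterozygous and homozygous mice. Its exons share 12.5% of their bases with *Exosc9* on the opposite strand. *Ccnb1*, the gene of cyclin B1, was at 13.0 to 18.5 CPM (median 16.7) in controls, 10.4 to 16.02 CPM (median 13.6) in heterozygous and 13.5 to 16.9 CPM (median 15.1) in homozygous mice. *Ccnb2*, the gene of cyclin B2, was at 24.2 to 33.3 CPM (median 27.9) in controls, 21.1 to 28.8 CPM (median 23.4) in heterozygous and 21.1 to 25.8 CPM (median 24.0) in homozygous mice, with a fitted difference of -0.23 (SE 0.09) in homozygous mice (edgeR, unadjusted p = 0.0179, adjusted p = 0.509). All 6 homozygous libraries were below the control median of *Ccnb2*, as against 4 of 6 heterozygous ones. *Cdk1*, the kinase that both B cyclins activate, was at 18.4 to 21.7 CPM (median 19.4) in controls, 15.4 to 21.4 CPM (median 16.3) in heterozygous and 16.2 to 19.96 CPM (median 18.8) in homozygous mice. *Foxm1*, which encodes a transcription factor of G2/M genes, differed by -0.21 (SE 0.10) in heterozygous and -0.19 (SE 0.10) in homozygous mice.

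*Nusap1*, which encodes a protein that bundles spindle microtubules, had the lowest p-value of all members in homozygous mice. The gene lies at chr2:119618298-119651244 (plus strand, GRCm38). It was at 23.8 to 29.6 CPM (median 26.4) in controls, 19.99 to 26.1 CPM (median 23.8) in heterozygous and 20.2 to 23.8 CPM (median 21.9) in homozygous mice. Every homozygous library lay below every control, although the highest homozygous library and the lowest control were almost equal. The fitted difference was -0.27 (SE 0.07), a fold of 0.83 with a 95% interval from 0.75 to 0.92 (edgeR, unadjusted p = 0.00110, adjusted p = 0.142). DESeq2 put *Nusap1* past the threshold in the same comparison (log2 fold change -0.26, adjusted p = 0.0431), the only member called by either tool. In heterozygous mice *Nusap1* differed by -0.14 (SE 0.07) (edgeR, adjusted p = 0.979). *Tpx2*, which encodes an activator of Aurora A on the spindle, was at 22.8 to 28.7 CPM (median 25.96) in controls, 15.6 to 23.7 CPM (median 22.7) in heterozygous and 20.5 to 23.97 CPM (median 22.5) in homozygous mice, and its fitted differences were -0.21 (SE 0.09) and -0.21 (SE 0.09). All 12 IEC-*Ppara* libraries were below the control median of *Tpx2*. The kinesin genes, whose motors separate spindle poles and complete cytokinesis, differed in homozygous mice by -0.22 (SE 0.12) for *Kif11*, -0.22 (SE 0.11) for *Kif20a* and -0.10 (SE 0.10) for *Kif23*. For *Kif20a*, 29.3% of the exon bases are shared with *Cdc23* on the opposite strand.

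Among the mitotic kinases, *Plk1*, which acts from mitotic entry to cytokinesis, was at 49.9 to 57.4 CPM (median 55.4) in controls, 40.8 to 57.8 CPM (median 52.5) in heterozygous and 49.9 to 57.8 CPM (median 52.1) in homozygous mice. The control and homozygous ranges were nearly the same, and the 95% interval of the difference, from -0.19 to 0.10 (log2) in homozygous mice, holds 0. *Aurkb*, the kinase of the chromosomal passenger complex, was at 18.4 to 25.7 CPM (median 20.5) in controls, 15.3 to 22.03 CPM (median 18.5) in heterozygous and 17.98 to 20.7 CPM (median 20.2) in homozygous mice. Its partner *Birc5*, the gene of survivin, was at 25.9 to 29.2 CPM (median 27.9) in controls, 20.4 to 28.8 CPM (median 22.03) in heterozygous and 20.8 to 29.2 CPM (median 24.8) in homozygous mice. For *Birc5*, 5 of 6 heterozygous and 3 of 6 homozygous libraries lay below every control, and the highest library of each of these groups lay at the top of the control range. *Aurka*, the centrosomal kinase, differed by -0.20 (SE 0.09) in heterozygous and -0.20 (SE 0.09) in homozygous mice, with unadjusted p-values of 0.0440 and 0.0421 by edgeR. The spindle checkpoint genes *Bub1*, *Bub1b* and *Ttk* differed by -0.14 (SE 0.12), -0.20 (SE 0.11) and -0.04 (SE 0.12) in homozygous mice, and *Ttk* was the only G2/M gene estimated above the controls in heterozygous mice, at 0.02 (SE 0.12).

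*Cdc20*, an activator of the anaphase-promoting complex, was at 31.2 to 37.2 CPM (median 32.4) in controls, 24.3 to 34.4 CPM (median 29.6) in heterozygous and 27.9 to 31.6 CPM (median 28.4) in homozygous mice. All 6 homozygous libraries lay below the control median, and the fitted difference was -0.17 (SE 0.08) (edgeR, adjusted p = 0.635). *Ube2c*, which encodes the ubiquitin-conjugating enzyme of that complex, differed by -0.14 (SE 0.10) and -0.10 (SE 0.10) in heterozygous and homozygous mice, and *Espl1*, the gene of separase, by -0.24 (SE 0.13) and -0.19 (SE 0.13). *Espl1* spanned 2.37-fold between the lowest library, heterozygous 5, and the highest. The centromere genes *Cenpa*, *Cenpe* and *Cenpf* differed by -0.22 (SE 0.09), -0.10 (SE 0.14) and -0.04 (SE 0.14) in heterozygous mice.

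*Mki67* and *Top2a* are widely used as markers of dividing cells. *Mki67*, which encodes the Ki-67 antigen that coats mitotic chromosomes, was at 138 to 167 CPM (median 151) in controls, 105 to 173 CPM (median 147) in heterozygous and 111 to 192 CPM (median 145) in homozygous mice. The lowest and the highest library of *Mki67* were both from IEC-*Ppara* mice, and the 95% interval of the log2 difference ran from -0.40 to 0.24 in heterozygous and from -0.36 to 0.28 in homozygous mice. *Top2a*, the gene of the topoisomerase that untangles chromosomes before they part, was at 115 to 149 CPM (median 121) in controls, 79.01 to 126 CPM (median 110.5) in heterozygous and 97.5 to 127 CPM (median 109) in homozygous mice. Its fitted difference was -0.24 (SE 0.11) in heterozygous mice (edgeR, unadjusted p = 0.0396, adjusted p = 0.926) and -0.19 (SE 0.11) in homozygous mice (adjusted p = 0.673). Per length, *Pcna* and *Plk1* were the most abundant members in controls, at 24.8 ± 1.6 and 24.8 ± 1.3 FPKM (mean ± SD, n = 6), followed by *Ccnb2* at 18.3 ± 2 FPKM and *Cdc20* at 17.7 ± 1.2 FPKM, and *Ttk* was the least abundant at 1.35 ± 0.15 FPKM. *Pcna* and *Plk1* do not differ beyond their spread, nor do *Ccnb2* and *Cdc20*.

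In the comparison of heterozygous mice with controls, 24 of 25 G2/M genes were estimated lower, with a median of -0.16, and 16 of the 39 genes, 8 in each phase, had an unadjusted p under 0.05 and a lower value. Of all 12645 genes, 2.53% did so. Groups that did not overlap were found for 2 members (*Hells* and *Mcm4*), against 0.174% of all genes lower in that way, and 0 members were called against 0.293% of all genes, of which every one was higher. In the comparison of homozygous mice with controls, 25 of 25 G2/M genes were estimated lower, with a median of -0.16, and 5 of the 39 genes (*Nusap1*, *Ccnb2*, *Tpx2*, *Aurka* and *Pcna*) had an unadjusted p under 0.05 and a lower value, against 4.03% of all genes. One member, *Nusap1*, had groups that did not overlap, against 0.261% of all genes, and 0 members were called against 0.411%. Both comparisons use the same 6 controls. The count in homozygous mice moved when single libraries were left out: it was 16 without homozygous 6, 10 without control 4, 9 without homozygous 5, 8 without control 3, 3 without homozygous 1, and 2 without control 6 or without homozygous 3. It was also 10 with library totals in place of TMM, 2 without the 4 libraries rich in B cell transcripts, 2 with a smooth muscle covariate and 1 with a T cell covariate, both of which are described with the marker lists. The count in heterozygous mice was 6 without control 6, 7 without heterozygous 5, 21 without control 4, 23 with library totals and 3 with the T cell covariate.

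**Figure D3:**
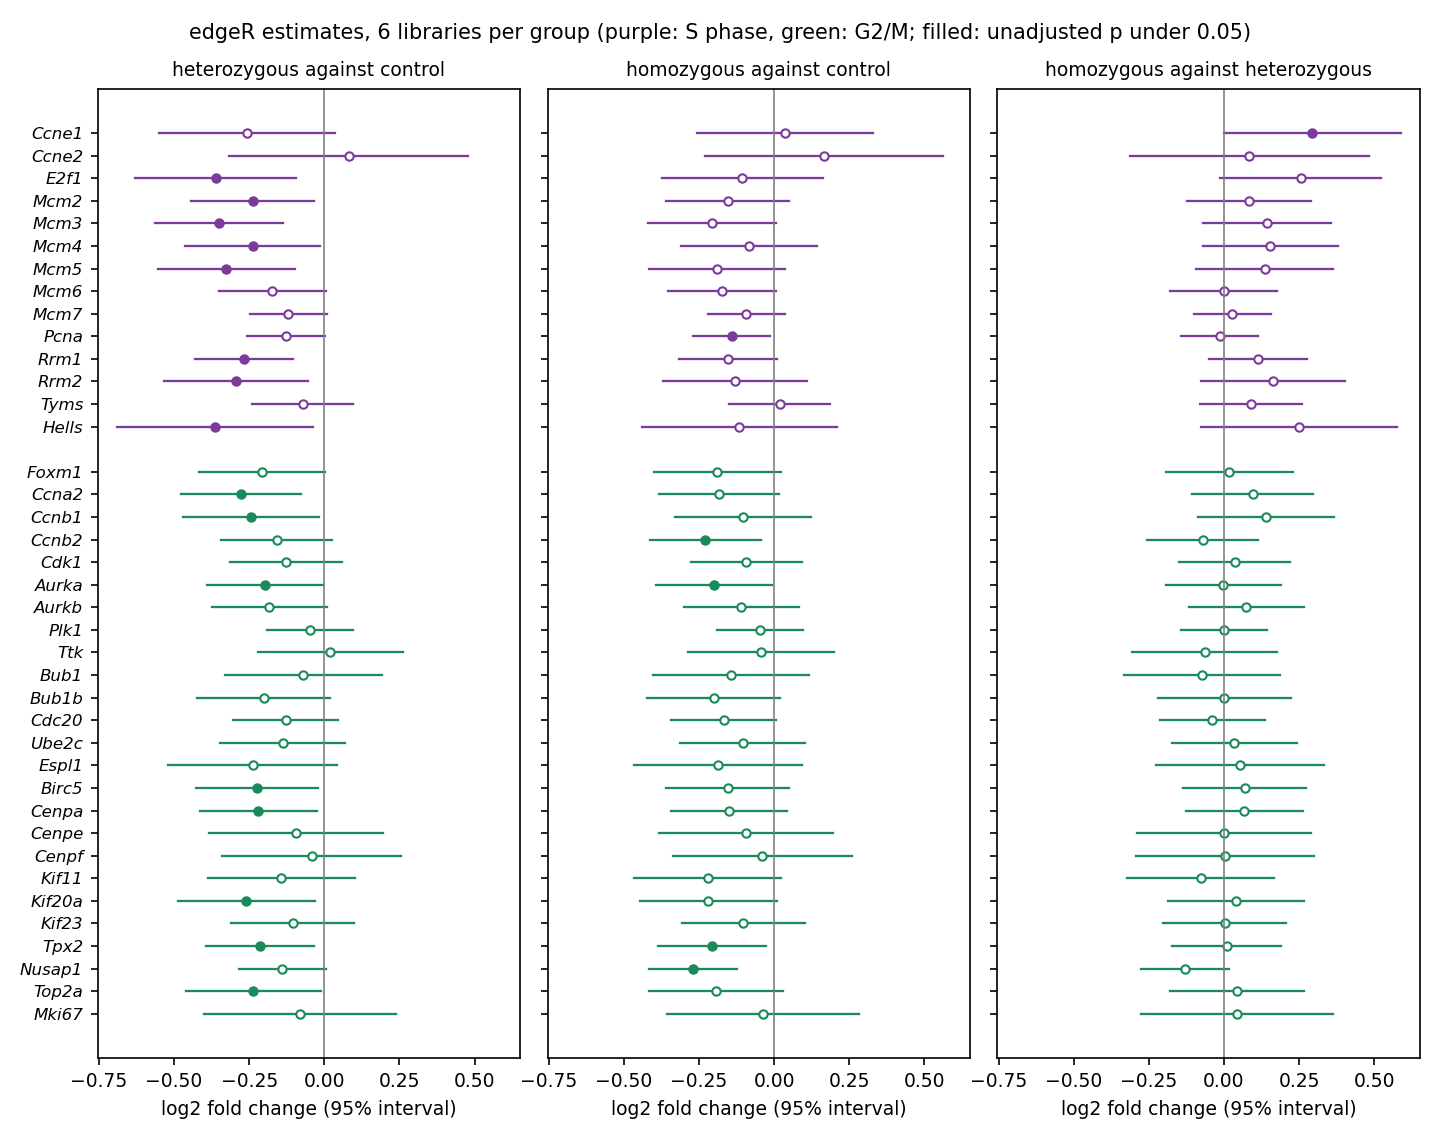
edgeR log2 fold changes with 95% intervals for the 39 genes in the 3 comparisons (6 libraries per group), with S phase genes in purple and G2/M genes in green; filled points have an unadjusted p under 0.05. All but *Ccne2* and *Ttk* lie left of 0 in heterozygous mice, and in homozygous against heterozygous mice most S phase points lie right of 0.

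Homozygous and heterozygous mice were compared directly to ask whether the phases differed between them. The S phase genes were estimated higher in homozygous mice for 12 of 14, with a median of 0.12, and the G2/M genes for 18 of 25, with a median of 0.009, against -0.00014 over all genes. The G2/M median was -0.05 without heterozygous 5 and -0.02 without homozygous 6. *Ccne1* had the lowest p (0.29 (SE 0.14), edgeR, unadjusted p = 0.0497, adjusted p = 0.642) and *E2f1* the next of the S phase genes (0.26 (SE 0.13), adjusted p = 0.642). That 1 of 39 genes had an unadjusted p under 0.05 and a higher value is near the 3.89% of all genes. Among G2/M genes, *Nusap1* (-0.13 (SE 0.07)) and *Ccnb1* (0.14 (SE 0.11)) had the lowest p-values, 0.0772 and 0.212 before adjustment. No member was called, against 0.00791% of all genes, which is 1 gene.

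Within libraries, the phases moved together. Over the 18 libraries the S phase and G2/M levels had a Pearson's r of 0.71 and a Spearman's rho of 0.79 as a description, and r was 0.57 without the 2 libraries farthest from the median S phase level. Within groups r was 0.90 over the 6 heterozygous and 0.87 over the 6 homozygous libraries but 0.10 over the 6 controls, and all these values share the depth of the library. Of the G2/M genes, 24 of 25 followed the mean of the other G2/M genes more closely than that of the S phase genes, and 11 of 14 S phase genes followed their own phase more closely. The exceptions were *Mki67* among G2/M genes and *E2f1*, *Mcm7* and *Tyms* among S phase genes, and they were picked out after these values were seen.

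Further genes of the pathway, from lists that cover replication and mitosis more fully, were mostly estimated lower too and none passed the test. Of 48 other S phase genes tested, 46 were estimated lower in heterozygous mice (median -0.16) and 43 in homozygous mice (median -0.11), and 0 were called. The lowest p was that of *Rad51ap1*, a recombination gene, at -0.48 (SE 0.11; edgeR, adjusted p = 0.089) in heterozygous mice, followed by *Cdc45*, a part of the replicative helicase, at -0.36 (SE 0.12). In homozygous mice *Pold1*, the catalytic subunit of DNA polymerase delta, was at -0.29 (SE 0.10) and *Rfc4*, of the clamp loader, at -0.31 (SE 0.12). Of 45 other G2/M genes tested, 40 were estimated lower in heterozygous mice (median -0.16) and 43 in homozygous mice (median -0.15), and 0 were called. *Ncapd2*, a condensin subunit, came closest, at -0.37 (SE 0.08; edgeR, adjusted p = 0.0534) in homozygous and -0.33 (SE 0.08) in heterozygous mice, and *Cdca3*, which marks WEE1 for destruction, was at -0.38 (SE 0.10) and -0.39 (SE 0.10). The cell cycle regulators, a list of cyclins, kinases, inhibitors and checkpoint genes that are not confined to one phase, had medians of -0.04 and -0.05, with 24 and 28 of 39 estimated lower and 0 called. Among them *Cdk2*, the partner of cyclin E, was at -0.15 (SE 0.06) in heterozygous and -0.16 (SE 0.06) in homozygous mice.

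Marker lists of the cell types in the gut wall were read beside these genes. T cell markers (10 genes, of which 6 were tested; none was at 0 in all libraries) had a summed level of 39.5 to 100.98 CPM over the controls, 28.1 to 74.0 CPM over the heterozygous and 30.1 to 42.8 CPM over the homozygous libraries. All 6 tested were estimated lower in both groups, with medians of -0.68 in heterozygous and -0.81 in homozygous mice and 0 called. An unadjusted p under 0.05 was found for 3 of the 6 in heterozygous and 6 of the 6 in homozygous mice, where 2 had groups that did not overlap. Over all genes, 2.53% and 4.03% had such a p by edgeR with a lower value. In homozygous mice, 0.261% of all genes were lower without overlap. Lowest in p were *Cd4* in homozygous mice at -0.70 (SE 0.18; edgeR, adjusted p = 0.151) and *Cd8a* in heterozygous mice at -0.71 (SE 0.23; adjusted p = 0.49). With the T cell level as a covariate, added after the data were seen, the medians in heterozygous mice were -0.19 for S phase and -0.10 for G2/M genes and those in homozygous mice -0.07 and -0.08, and the members with an unadjusted p under 0.05 numbered 3 and 1. Under that covariate, 34 of 39 members were estimated lower in heterozygous and 28 of 39 in homozygous mice, the lowest of these counts under any alternative. The T cell level itself differed by genotype, with means of 2.91 in controls, 2.26 in heterozygous and 2.15 in homozygous libraries. The covariate therefore takes up part of the genotype difference. Within groups its Pearson's r with the G2/M level was 0.36 over controls, 0.68 over heterozygous and -0.47 over homozygous libraries. B cell markers (12 of 12 tested) had a summed level of 34.9 to 758 CPM over the controls, 34.1 to 428 CPM over the heterozygous and 30.3 to 138 CPM over the homozygous libraries, with medians of -1.28 and -2.43 and 0 called. Of these, 10 of 12 had an unadjusted p under 0.05 in homozygous and 0 of 12 in heterozygous mice, against 4.03% and 2.53% of all genes. Germinal centre markers (8 genes, 4 tested) summed to 36.4 to 84.9, 35.7 to 51.8 and 38.6 to 56.7 CPM, with medians of -0.10 and -0.08. Plasma cell markers (6 genes, 4 tested) had medians of -0.05 in heterozygous and -0.28 in homozygous mice, with 4 of 4 estimated lower in both and 0 called. Of these 4, 2 in homozygous and 0 in heterozygous mice had an unadjusted p under 0.05 by edgeR. Without the 4 libraries of highest B cell level, the medians in heterozygous mice were -0.26 for S phase and -0.23 for G2/M genes and those in homozygous mice -0.09 and -0.16, with 16 and 2 members at an unadjusted p under 0.05. Beyond these refits, the part of lymphocytes in the result was not tested.

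Crypt base and progenitor markers (12 of 12 tested) had a summed level of 955 to 1221 CPM over the controls, 812 to 1271 CPM over the heterozygous and 872 to 1090 CPM over the homozygous libraries, with medians of -0.05 and -0.08 and 0 called. In heterozygous mice 8 of the 12 were estimated lower and 4 higher, and in homozygous mice 9 lower and 3 higher. *Olfm4*, a marker of crypt base cells, came closest, at -0.42 (SE 0.10, edgeR, adjusted p = 0.0942) in homozygous mice. Of the 12 crypt markers, 3 in homozygous and 0 in heterozygous mice were lower at an unadjusted p under 0.05 by edgeR. Over all genes, these shares were 4.03% and 2.53%. The crypt level was lowest in heterozygous 5, at 5.38, the library lowest in both phases. Enterocyte markers (12 of 12 tested) had medians of 0.24 and 0.12, with 9 of 12 estimated higher in heterozygous and 8 of 12 in homozygous mice. In homozygous mice 1 of them was called, against 0.411% of all genes. It was *Fabp2*, the gene of the intestinal fatty acid-binding protein, which rose (log2 fold change 0.94, SE 0.14, edgeR, adjusted p = 0.00116). The paper names *Fabp2* among the genes of lipid uptake and trafficking that rose, so its rise cannot be told apart from more enterocytes. Smooth muscle markers (10 of 10 tested) had a summed level of 711 to 6479.8 CPM over the controls (lowest in control 6), 885 to 4789 CPM over the heterozygous (lowest in heterozygous 3) and 4453 to 10284 CPM over the homozygous libraries, with medians of -0.18 and 0.56 and 0 called. Control 6 also had the highest S phase and G2/M levels of all libraries. Without it, the medians in homozygous mice were -0.07 for S phase and -0.10 for G2/M genes and those in heterozygous mice -0.20 and -0.10, and without heterozygous 3 the medians in heterozygous mice were -0.23 and -0.17. The part of crypt, enterocyte and muscle content in the result was not tested beyond refits with a crypt or a smooth muscle covariate, under which the 4 medians against controls lay between -0.26 and -0.09. With the smooth muscle covariate, 30 of 39 members were estimated lower in homozygous mice and 2 had an unadjusted p under 0.05. Fibroblast markers (10 of 10 tested) had medians of -0.06 in heterozygous and 0.25 in homozygous mice, with 0 called. They were estimated lower for 8 of 10 in heterozygous and higher for 9 of 10 in homozygous mice, and their part in the result was not tested.

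**Figure D4:**
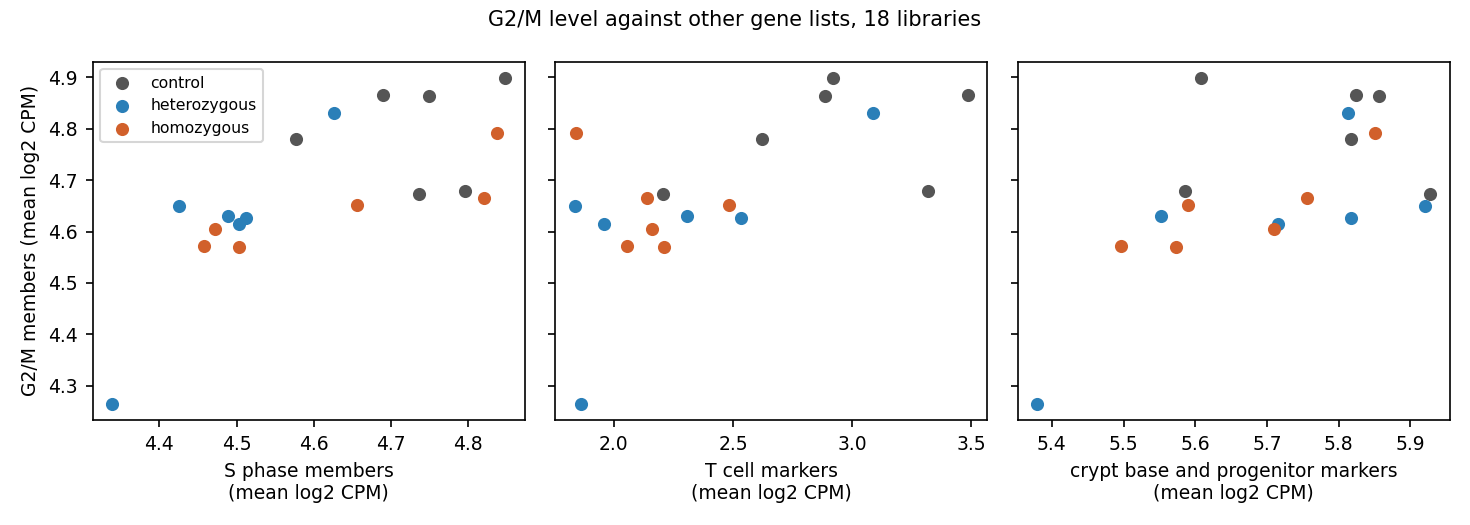
G2/M level (mean log2 CPM over 25 genes) of the 18 libraries against the S phase level (left), the T cell marker level (middle) and the crypt base and progenitor marker level (right), coloured by genotype. Heterozygous 5, at 4.26, lies below all other libraries and at the low end of all 3 horizontal axes, and homozygous 6 combines a G2/M level of 4.79 with a T cell level of 1.84.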

How the data were processed

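Bulk RNA-seq of whole-thickness ileum from 18 mice (6 per genotype by the labels, 1 library per mouse) was used. Poly-A libraries were read in pairs, and the authors used STAR with the mouse GRCm38 assembly of Ensembl (release 101) before they counted uniquely aligned, unambiguous reads per gene with featureCounts, and the deposited counts are not normalized. The strand setting is not given in the sources used here. In the deposited files, CPM is the count scaled by the library total, and deposited FPKM is CPM per kilobase of exon. CPM is printed per library, FPKM is used only to compare genes, and the deposited moderated log2 CPM was not used.

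Genes above 3 CPM in at least 4 libraries were kept, and the 12645 protein-coding genes among these 13709 were tested with edgeR 4.0.16 (TMM, glmQLFit and glmQLFTest, 1 coefficient per genotype, 18 libraries in 1 fit, no covariates) under R 4.3.3, with Benjamini-Hochberg adjustment over these genes. The fit was tested on simulated data, in which it found most of the genes given the larger of the changes tried and missed most of those given the smaller. The smaller change was above the estimate of every member in each comparison. The simulation gave every gene the same spread, which was not matched to the members, so these rates do not carry over to them. A member without a call may still differ. Levels of a list are means of log2 CPM (prior count 2). Intervals are 95% intervals of the fit, and p-values set a difference between groups against the spread between mice. The depth, 38528522 to 50376371 counts, gave members at least 180 counts in every library. Motifs and tables were handled in Python 3.11.15 with pandas 2.3.3.

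The members and lists were chosen with earlier results of these data known. The members whose range and median are given for each group are E2f1, Ccne1, Mcm2, Pcna, Rrm2, Tyms, Mki67, Top2a, Cdk1, Ccnb1, Plk1, Aurkb, Cdc20 and Birc5, any member with an adjusted p under 0.05, and the 2 members of each phase with the lowest p in each comparison. Hells was added after its values were seen. In the other lists, the genes named are among those with an adjusted p under 0.05 or else the 2 of lowest p, with Epcam, Vil1, Ms4a1 and Cd79a as examples of their lists. Alternatives were DESeq2 1.42.0, edgeR with DESeq2's size factors, edgeR with library totals, no filter, the 12 libraries compared, sex, a replicate block, leaving out each library, a prior count of 0.5 and, added later, marker covariates and leaving out 4 libraries rich in B cell transcripts. The exons of 10 members overlap another gene model, 8 of them a protein-coding one.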

Additional observations from a re-analysis of the deposited data

Results flagged for a closer look

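In 6 of 123 sets of 6 libraries (each of the 39 members and both phase levels in each genotype), 1 library stood apart from the other 5 by Dixon's test at its 95% critical value, where chance alone gives about 1 in 20 sets. *Mcm6* was lowest in control 1, at 61.1 CPM against 68.1 CPM in the nearest control. Control 6 was highest for *Cdc20*, at 37.2 CPM against 33.4 CPM, and for *Kif23*, at 39.6 CPM against 34.9 CPM. *Mcm3* was highest in heterozygous 2, at 36.0 CPM against 27.8 CPM. Heterozygous 5 was lowest for *Kif20a*, at 10.2 CPM against 13.5 CPM, and for *Tpx2*, at 15.6 CPM against 22.4 CPM. Heterozygous 5 also had the lowest G2/M and S phase levels of the 18 libraries.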

How the results depend on the processing

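Each comparison was refitted under 30 alternatives. The medians of both phases against controls stayed below 0 in all of them, and without 1 library at a time they lay between -0.17 and -0.07 (S phase) and -0.21 and -0.10 (G2/M) in homozygous mice and between -0.28 and -0.20 and -0.21 and -0.10 in heterozygous mice. In homozygous against heterozygous mice they ran from 0.08 to 0.16 (S phase) and from -0.05 to 0.06 (G2/M), so the sign of the latter changed with single libraries. A prior count of 0.5 moved each phase level by less than the spread of its group. The T cell covariate moved the G2/M median in homozygous mice to -0.08, and the cause was not tested. The estimate of 14 members in homozygous, 6 in heterozygous and 21 in homozygous against heterozygous mice changed sign under some alternative, none of them called. DESeq2 called 1 member in homozygous mice (*Nusap1*).

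Members with an unadjusted p under 0.05 in homozygous mice numbered 10 with library size alone, 1 with the T cell covariate, 2 with the smooth muscle covariate, 2 without the 4 libraries of highest B cell level, and 2 to 16 without 1 library. In heterozygous mice they numbered 3 with the T cell covariate and 6 to 21 without 1 library. In homozygous against heterozygous mice they numbered 0 without the filter, with only the 12 libraries, with sex, with the replicate block or with the crypt covariate, 2 with the smooth muscle covariate or without the 4 libraries, and 0 to 3 without 1 library. DESeq2 called 136, 80 and 10 of all genes in homozygous and heterozygous mice against controls and homozygous against heterozygous mice, and the T cell covariate left 19, 10 and 0. Leaving out the 4 libraries left 31, 15 and 0. The 12 libraries alone gave 23 in heterozygous mice. The only gene called between homozygous and heterozygous mice was lost (0 called) with DESeq2 size factors, no filter, the 12 libraries, sex, the replicate block and the B cell, crypt, T cell and smooth muscle covariates, and 0 to 2 were called without 1 library. Without 1 library, 43 to 65 genes were called in homozygous and 25 to 53 in heterozygous mice.

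With the replicate number as a block, 49 genes were called in homozygous and 22 in heterozygous mice and 0 members. Deviations of same-numbered libraries correlated between -0.61 and 0.64, which cannot show whether equal numbers mark littermates or a shared batch. The lowest count of a member in a library was 180 (*Ccne1*), so counting error is part of the spread of the least abundant members, and its share was not tested.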
